A study of Mus musculus with 8 samples.

Results

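Injured mouse kidneys that had received transplanted MSCs were compared across all genes with kidneys left with the injury alone, at day 14. MSC is the field's short form for mesenchymal stem or stromal cell, which the labels do not spell out. The 2 groups hold 6 of the 8 libraries of the series and were taken from the sample labels. The group uIRI (n = 3) is renal tissue of genotype WT with the treatment uIRI, and the group uIRI+MSC (n = 3) is WT renal tissue after uIRI and MSC transplantation. The labels leave uIRI unexplained; kidney research uses it for unilateral ischaemia and reperfusion, where flow to 1 kidney is cut off for a time. Sham kidney (n = 2), also WT and day 14, was used to show the uninjured level. The labels state neither the strain, age and sex of the mice nor the origin, number, route and timing of the cells. Nor do they say whether the replicates were different animals, and p-values then measure only the spread between these samples, which may be technical.

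Proximal tubule cells reabsorb glucose, amino acids, phosphate and filtered protein, and they fuel this by oxidising fatty acids in mitochondria. After ischaemia many of these cells lose their transporters and metabolic enzymes, and some regain them while others stay in an injured state that makes chemokines and adhesion molecules. Monocytes enter and become macrophages, fibroblasts lay down matrix, and some tubule cells leave the cell cycle. Mesenchymal stromal cells are studied as a therapy because they release factors that act on macrophages, vessels and tubules. The series names renal senescence, copper flux and respiration as its subjects, so gene lists for these were included.

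Depth ran from 18426077 to 24300112 counts in uIRI and from 11592986 to 22652718 in uIRI+MSC, and replicate libraries differed by at least 24 times the variance of counting alone. Spread between libraries therefore set the precision of abundant genes. Levels are given as CPM, counts scaled to a library of 1e+06 with TMM factors, in the order of replicates 1, 2 and 3. In a principal component analysis of the 6 libraries the first component (46.5% of the variance) put uIRI at -65.7, -13.1 and -25.3 and uIRI+MSC at 30.2, 52 and 21.8. The library uIRI 1 stood at the far end of it, and uIRI+MSC 3 stood apart on the second component (23.9%), at -60.5 against 1.5 to 26.7 for the others. Both stay in the comparison, and the main counts are also given without them. Defining markers of kidney, such as Lrp2 and Umod, were abundant in every library. Tissue from whole kidney holds many cell types, and fewer cells of a type and less RNA per cell cannot be told apart here.

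The comparison asks what the transplantation had altered in the injured kidney by day 14. Of 34745 genes listed, 16576 had enough counts to be tested, and 0 of these (0%) passed edgeR's quasi-likelihood test at a Benjamini-Hochberg adjusted p of 0.05. The smallest adjusted p was 0.111. An unadjusted p under 0.05 was reached by 3418 genes (20.6% of those tested, against 829 expected with no difference), of which 1869 (11.3%) were higher in uIRI+MSC and 1549 (9.34%) lower. Among them 510 were at least 2-fold higher and 406 at least 2-fold lower. The limma-voom test also called 0 genes (smallest adjusted p 0.0919, with 3659 at an unadjusted p under 0.05). DESeq2 called 1364 of the 15281 genes it gave an adjusted p (8.93%), 794 higher (5.2%) and 570 lower (3.73%), and all 1364 also had an edgeR unadjusted p under 0.05. The 3 libraries of one group lay entirely above the 3 of the other in 4451 genes (26.9%), with uIRI+MSC above in 2344 (14.1%) and below in 2107 (12.7%). No gene named in what follows passed edgeR over all genes, so differences are given as values, as log2 of uIRI+MSC over uIRI with its SE. The DESeq2 adjusted p is printed for part of the genes only, and a gene without it need not be under 0.05. Where not printed it was, for example, 0.303 in Cyp2d12, 0.102 in Cyp4a14, 0.0946 in Lum and 0.0767 in Sox9. Further cases were Krt20 (0.102), Mt1 (0.0847), Mt2 (0.104), Areg (0.103), Cxcl2 (0.145), Slc7a11 (0.161), Fos (0.0915) and Cldn19 (0.0972). Others without it were under 0.05, such as Cyp2a5 (1.29e-05), and mt-Atp6 was given none. The typical SE of a gene was 0.206, the median over all genes.

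**Figure D1:**
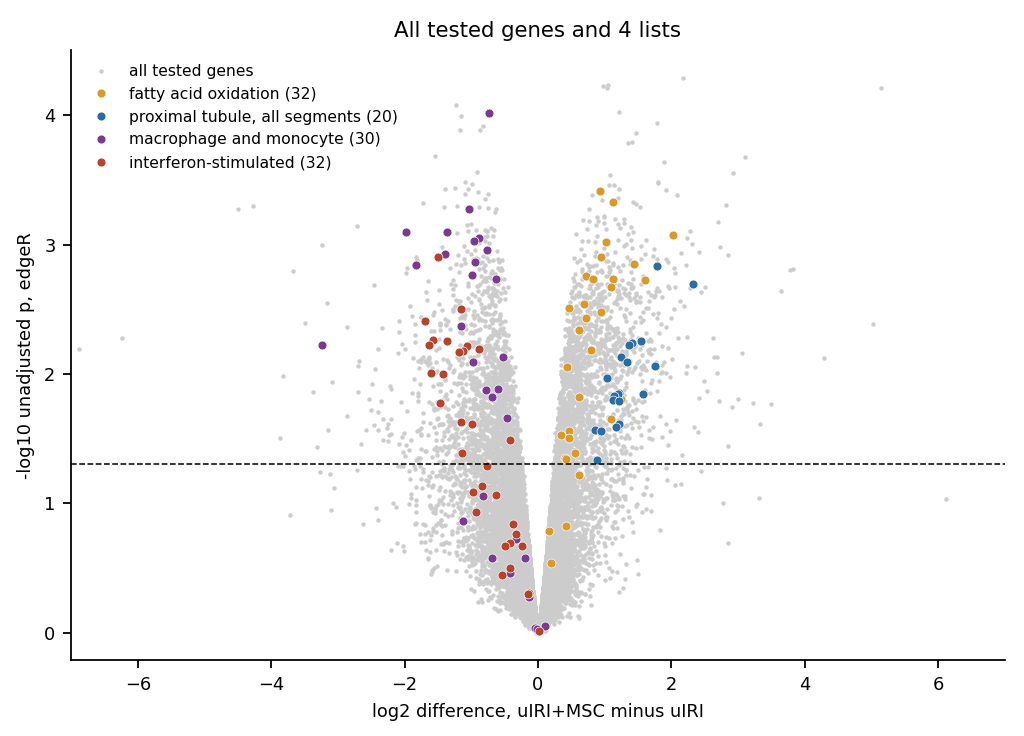
Each grey point is 1 of the 16576 tested genes, with the log2 difference between uIRI+MSC and uIRI on the x axis and -log10 of the edgeR unadjusted p on the y axis; the dashed line marks 0.05 and 2 genes lie outside the x axis. All 20 proximal tubule genes lie to the right of 0 and above the line, and the macrophage and interferon-stimulated genes lie mostly to the left.

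The split between higher and lower depends on the scaling. With library size alone in place of TMM factors the median difference of all genes moved from -0.01 to -0.16, and the genes at an unadjusted p under 0.05 became 1100 higher and 2795 lower. The list results below are relative to the TMM scaling, and a list median turned sign under library size where this is said. Counts of list genes at an unadjusted p under 0.05 stand beside 11.3% of all genes higher and 9.34% lower.

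The smallest p belonged to Slc38a3, a glutamine transporter of the proximal tubule that supplies ammonia formation. Its level was 2.32, 4.77 and 3.25 CPM in uIRI, 15.9, 11.9 and 19 in uIRI+MSC and 95.9 and 66.8 in sham. Every uIRI+MSC library lay well above every uIRI library and far below sham, with a log2 difference of 2.17 ± 0.29 (edgeR unadjusted p = 5.14e-05, adjusted p = 0.111, DESeq2 adjusted p = 4.68e-08). The zinc transporter gene Slc30a2 stood at 20.4, 24.7 and 26.8 CPM against 56, 48.2 and 44.8 (1.05 ± 0.14, DESeq2 adjusted p = 1.78e-06). Slc20a1, a sodium-phosphate cotransporter gene, stood at 46.7, 62.3 and 51.8 CPM in uIRI against 98, 108 and 109 in uIRI+MSC, with sham at 53.4 and 48.7, so that the uIRI+MSC libraries alone were high. Errfi1, which encodes a feedback inhibitor of the epidermal growth factor receptor, was also higher in all 3 libraries (1.21 ± 0.18), as was the potassium channel gene Kcnj15 (1.78 ± 0.27). The transcripts lower with the smallest p included Cx3cr1, the fractalkine receptor of monocytes and macrophages, at 143, 128 and 139 CPM in uIRI against 81.9, 87.9 and 78.2 in uIRI+MSC (-0.73 ± 0.11, DESeq2 adjusted p = 1.87e-06). Its replicates were tight in both groups and did not overlap. Others were Tmem229b (-1.23 ± 0.18), the transcriptional repressor gene Hic1 (-1.16 ± 0.17), Plekho2 (-0.87 ± 0.13) and Ankrd1 (-1.16 ± 0.18), a target of the YAP coactivator.

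Ranked by size among genes with an unadjusted p under 0.05, no overlap and a mean FPKM of at least 5, the 12 transcripts with the largest positive difference came from several gene families. They included the fatty acid hydroxylase gene Cyp4a14 (0.337, 4.33 and 21.4 CPM in uIRI, 80.1, 83 and 40.7 in uIRI+MSC), whose 3 uIRI libraries were far apart (a difference of 2.99, and 4.88 without uIRI 3). The cytochrome P450 genes Cyp2a5 (2.82 ± 0.52), Cyp2a4 (2.71 ± 0.52) and Cyp2d12 (2.41 ± 0.80) share sequence with relatives, so their values are uncertain. Ugt1a5, which shares exons with its neighbours, is uncertain too. Its CPM values were 4.21, 0 and 0.0471 (uIRI) against 65.9, 38.2 and 42.5 (uIRI+MSC), and its difference of 5.03 ± 1.3 was 10.77 without uIRI 1, so its size depends on that library. The others of the 12 were the insulin-like growth factor binding protein gene Igfbp1 (2.32 ± 0.47), the lipid synthesis gene Mogat1 (2.22 ± 0.48), and Pck1, Dmgdh, mt-Atp6, Fga and Fgg, which are described with their groups. The 12 with the largest negative difference included the proteoglycan genes Lum and Fmod and, described with their groups, Ccl8, Cxcl12, Isg15 and Retnla. Lum, a keratan sulphate proteoglycan, stood at 77, 19.5 and 29.5 CPM in uIRI against 9.42, 2.57 and 18.7 in uIRI+MSC. Penk, the enkephalin precursor, stood at 23.8, 11.7 and 10.7 against 3.81, 2.14 and 5.96, and the insulin-like growth factor binding protein gene Igfbp2 at 73.8, 24.2 and 25.3 against 12.5, 6.08 and 16. In Lum, Igfbp2 and the proteoglycan gene Fmod the library uIRI 1 was the highest by far, and without it the differences were -1.27, -1.11 and -0.84 in place of -2.05, -1.84 and -1.65. Fabp5, Lyz1, Rgs16 and Ms4a4c, all transcripts of immune cells among other sources, differed by -1.83, -1.72, -1.66 and -1.69 on the log2 scale, with Ms4a4c at -0.88 without uIRI 3.

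Genes shared by all segments of the proximal tubule were higher in uIRI+MSC. Of 20 tested genes that mark all its segments, 20 were higher at an unadjusted p under 0.05, 20 had no overlap between the groups, and DESeq2 called 15 higher and 0 lower. The median log2 difference was 1.22, against -0.01 over all genes. Against sham the median of the list was -3.15 in uIRI and -1.85 in uIRI+MSC. Relative to the mean of the uIRI libraries, the list median stood at -1.03, 0.68 and 0.34 in uIRI 1, 2 and 3 and at 1.61, 1.38 and 1.32 in uIRI+MSC 1, 2 and 3, so uIRI 1 was the lowest of all. Without uIRI 1 and uIRI+MSC 3 all 20 stayed higher at an unadjusted p under 0.05, with a median of 0.96, and without uIRI+MSC 1 there were 13, with a median of 1.15.

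Among them Lrp2, which encodes the endocytic receptor megalin (ENSMUSG00000027070, on GRCm38 chromosome 2, 69424340 to 69586065), stood at 247, 812 and 651 CPM in uIRI, 1326, 1126 and 1319 in uIRI+MSC and 4118 and 4227 in sham. The 3 uIRI+MSC libraries agreed closely while uIRI 1 lay far below uIRI 2 and 3, and the difference was 1.14 ± 0.37 (DESeq2 adjusted p = 0.027). Its partner receptor Cubn differed by 1.22 ± 0.40, the phosphate transporter gene Slc34a1 by 1.22 ± 0.41, and Hnf4a, the nuclear receptor that maintains proximal tubule identity, by 1.04 ± 0.32. Slc17a3, an organic anion and phosphate transporter gene, had the smallest p of the list (1.79 ± 0.39, DESeq2 adjusted p = 0.000563). Slc27a2, which imports and activates long-chain fatty acids, stood at 241, 778 and 638 CPM in uIRI against 1451, 1309 and 1656 in uIRI+MSC (1.41 ± 0.39).

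By segment, the 11 genes of the convoluted first and second parts had a median of 1.15, with 7 higher at an unadjusted p under 0.05 and 0 lower. Without uIRI 1 the median was 0.72 with 8 higher. Slc22a6, the organic anion transporter OAT1, stood at 33.6, 175 and 124 CPM in uIRI against 589, 414 and 371 in uIRI+MSC (2.05 ± 0.50, DESeq2 adjusted p = 0.00132), with sham at 1559.5 and 1379.9. The sulphate transporter gene Slc13a1 and the vitamin D carrier gene Gc lay above sham as well as above uIRI in uIRI+MSC. Slc13a1 stood at 123, 367 and 202 CPM in uIRI, 632, 839.9 and 529 in uIRI+MSC and 406 and 392 in sham. Slc5a2, the glucose transporter SGLT2, overlapped between the groups, at 60.3, 210.0 and 177 against 250.2, 244 and 145 CPM (0.51 ± 0.41, DESeq2 adjusted p = 0.499, and 0.13 without uIRI 1 or 0.84 without uIRI 2). Of 12 genes of the straight last segment 6 were higher at an unadjusted p under 0.05, with a median of 0.87 that was 0.35 without uIRI 1 and uIRI+MSC 3, where 3 were higher. Without uIRI+MSC 2 there were 9 higher, and without uIRI+MSC 3 the median was 0.56. The lactate and nicotinate transporter gene Slc5a8 (1.95 ± 0.42) and the amino acid transporter gene Slc7a13 (1.7 ± 0.46) had the highest levels in uIRI+MSC 3, at 206 and 180.5 CPM. Akr1c18, at 63.2 and 33.2 CPM in sham, had 0 counts in all 3 uIRI+MSC libraries and in uIRI 3. The steroid hydroxylase gene Cyp7b1 lay lower without overlap (-0.51 ± 0.32, unadjusted p = 0.1458).

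**Figure D2:**
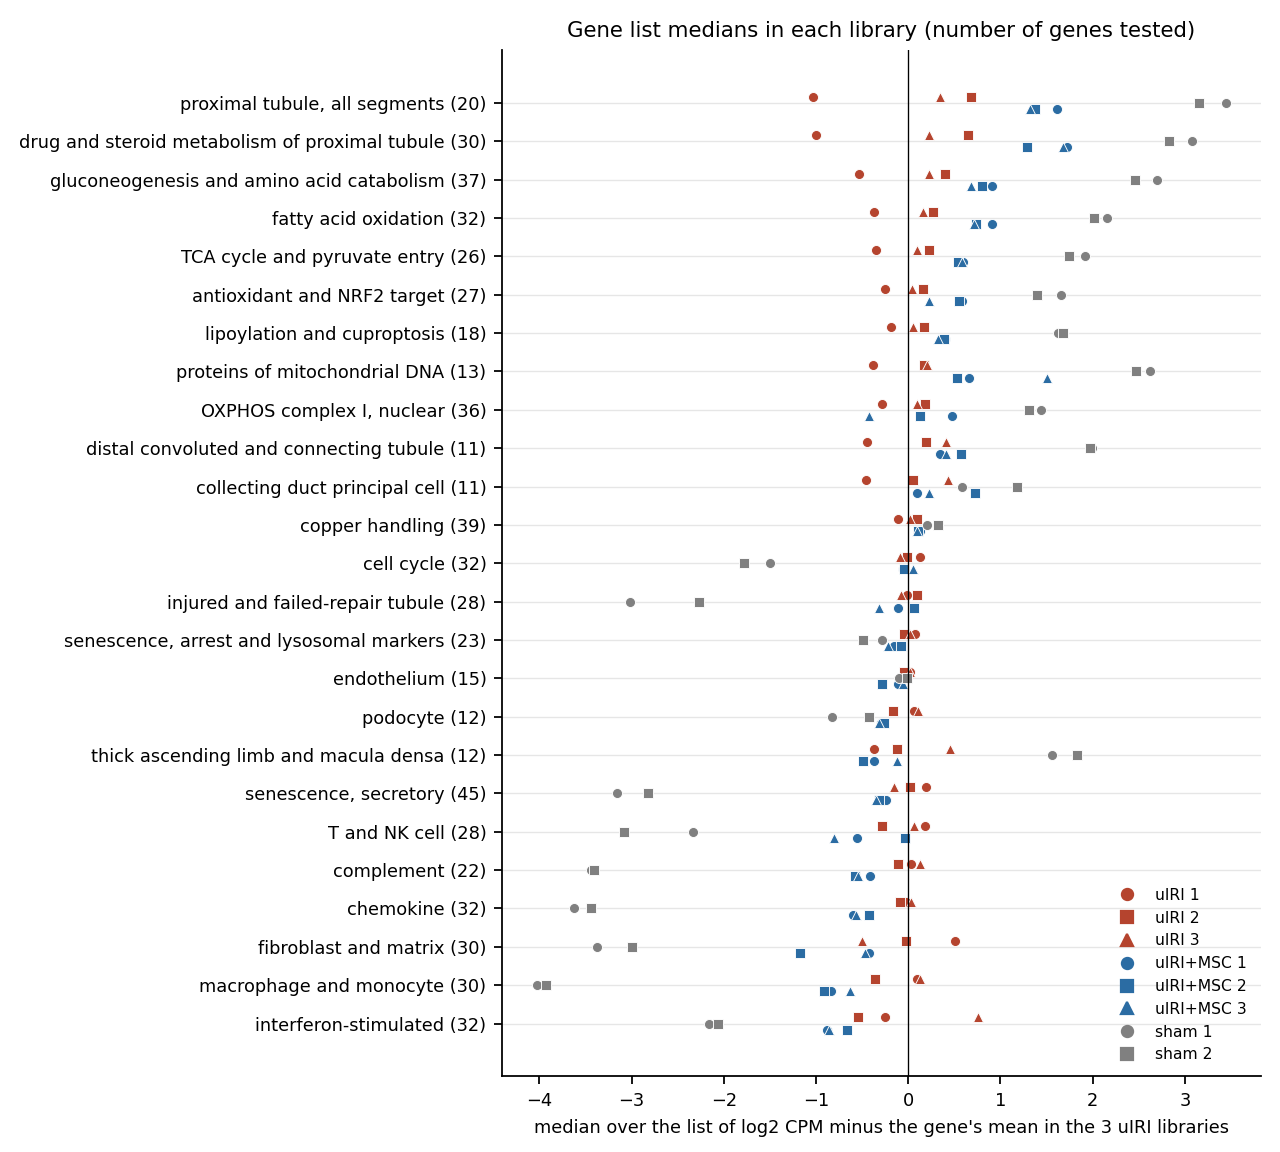
Each symbol is the median of a gene list in 1 library, as log2 CPM minus the gene's mean in the 3 uIRI libraries, with the number of tested genes in brackets. The uIRI+MSC libraries (blue) lie right of all uIRI libraries (red) in the proximal tubule, fatty acid oxidation and TCA cycle lists and left of them in the macrophage, complement and interferon lists, while in OXPHOS complex I uIRI+MSC 3 lies left of all uIRI libraries.

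Genes of metabolic enzymes were higher too, and whole kidney tissue does not show in which cells. In the list of drug and steroid metabolism 26 of 30 genes were higher and 2 lower at an unadjusted p under 0.05, DESeq2 called 20 higher, and the median was 1.31. The 2 lower were the epoxide hydrolase gene Ephx1 (-0.54 ± 0.22) and the glutathione transferase gene Gsta4 (-0.54 ± 0.22), and both overlapped. Cyp2e1, which oxidises ethanol and other small molecules, stood at 63.4, 278 and 196 CPM in uIRI against 793, 599 and 836 in uIRI+MSC (2.05 ± 0.46, DESeq2 adjusted p = 0.00034). Both enzymes that set the level of active vitamin D were higher in uIRI+MSC: the activating 1-alpha-hydroxylase gene Cyp27b1 stood at 4.95, 20.8 and 16.4 against 39.6, 58.2 and 43.7 CPM (1.75 ± 0.49), above sham at 4.47 and 10.8, and the degrading 24-hydroxylase gene Cyp24a1 differed by 1.65 ± 0.41. Inmt, a methyltransferase gene, differed by 2.14 ± 0.45 and the glucuronosyltransferase family gene Ugt3a1 by 1.97 ± 0.46.

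Fatty acid oxidation genes were higher in 28 of 32 at an unadjusted p under 0.05, with 0 lower, 27 without overlap and 19 called by DESeq2. The list median was 0.72, and -1.97 and -1.39 against sham in uIRI and uIRI+MSC. Without uIRI 1 and uIRI+MSC 3 it was 0.57, with 25 higher. Cpt1a and Cpt2, the carnitine palmitoyltransferases that carry fatty acids into mitochondria, both lay higher without overlap. Cpt1a stood at 173, 244 and 254 against 418, 331 and 437 CPM (0.82 ± 0.18, DESeq2 adjusted p = 0.00244), and Cpt2 at 25.4, 44.4 and 34.8 against 83.4, 67.5 and 77 (1.12 ± 0.21, DESeq2 adjusted p = 0.00038). Acadm, the medium-chain acyl-CoA dehydrogenase, had 86.5, 151 and 139.9 CPM in uIRI, 247, 222 and 254 in uIRI+MSC and 1858 and 1302 in sham. All uIRI+MSC libraries were above all uIRI libraries, and all were several-fold below sham (0.94 ± 0.23). The peroxisomal genes Crot (1.02 ± 0.21) and Pex11a (0.93 ± 0.17), and Acot12 (2.02 ± 0.40), had the smallest p beside Cpt2. Ppara, the nuclear receptor that drives these genes in liver and kidney, differed by 1.1 ± 0.25.

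Pdk4, the kinase that shuts pyruvate out of the TCA cycle, stood at 15.3, 13.9 and 15.9 CPM in uIRI against 68.7, 67.3 and 29.8 in uIRI+MSC (1.88 ± 0.31, DESeq2 adjusted p = 1.03e-05), with sham at 72.2 and 46.9. Angptl4, a secreted lipoprotein lipase inhibitor, stood at 28.3, 28.1 and 23.4 and 87.2, 86.3 and 48.2 CPM, with sham at 74.4 and 61.6 (1.48 ± 0.23, DESeq2 adjusted p = 1.13e-05). In both genes uIRI+MSC 1 and 2 lay close together near or above the sham level, and uIRI+MSC 3 lay lower. Without uIRI+MSC 3 both passed edgeR over all genes, at differences of 2.19 and 1.72, and they were the only 2 genes that did.

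The TCA cycle and pyruvate entry list had 22 of 26 genes higher at an unadjusted p under 0.05, 24 without overlap and a median of 0.56 (0.42 with 18 higher without uIRI 1 and uIRI+MSC 3). Suclg2, a subunit of succinyl-CoA synthetase, differed by 1.23 ± 0.27 and Idh1, the cytosolic isocitrate dehydrogenase, by 0.91 ± 0.22. Gluconeogenesis and amino acid catabolism, a role the proximal tubule shares with liver, had 28 of 37 genes higher and 0 lower (median 0.78, DESeq2 16 higher). Without uIRI 1 the median was 0.48 with 22 higher. Pck1 (ENSMUSG00000027513, chromosome 2, 173153048 to 173159273), the rate-limiting enzyme of gluconeogenesis, stood at 33.6, 193 and 156 CPM in uIRI, 752, 616 and 551 in uIRI+MSC and 2134 and 1746 in sham (2.33 ± 0.53, DESeq2 adjusted p = 0.000312). The uIRI libraries did not reach the lowest uIRI+MSC library, and uIRI 1 was far below the other two. Without uIRI 1 the difference was 1.87 and Pck1 passed edgeR with 7 other genes. G6pc, which releases free glucose, differed by 1.45 ± 0.49. Hpd, of tyrosine breakdown, stood at 0.135, 0.587 and 0.754 against 2.47, 3.93 and 4.7 CPM (2.93 ± 0.50, DESeq2 adjusted p = 1.02e-06) and Dmgdh, of choline breakdown, at 2.49, 10.6 and 7.91 against 36.9, 25.6 and 39.3 (2.28 ± 0.45). Dpys, of pyrimidine breakdown, stood at 0.168, 0.917 and 1.37 against 6.45, 7.51 and 6.47 (3.1 ± 0.51).

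**Figure D3:**
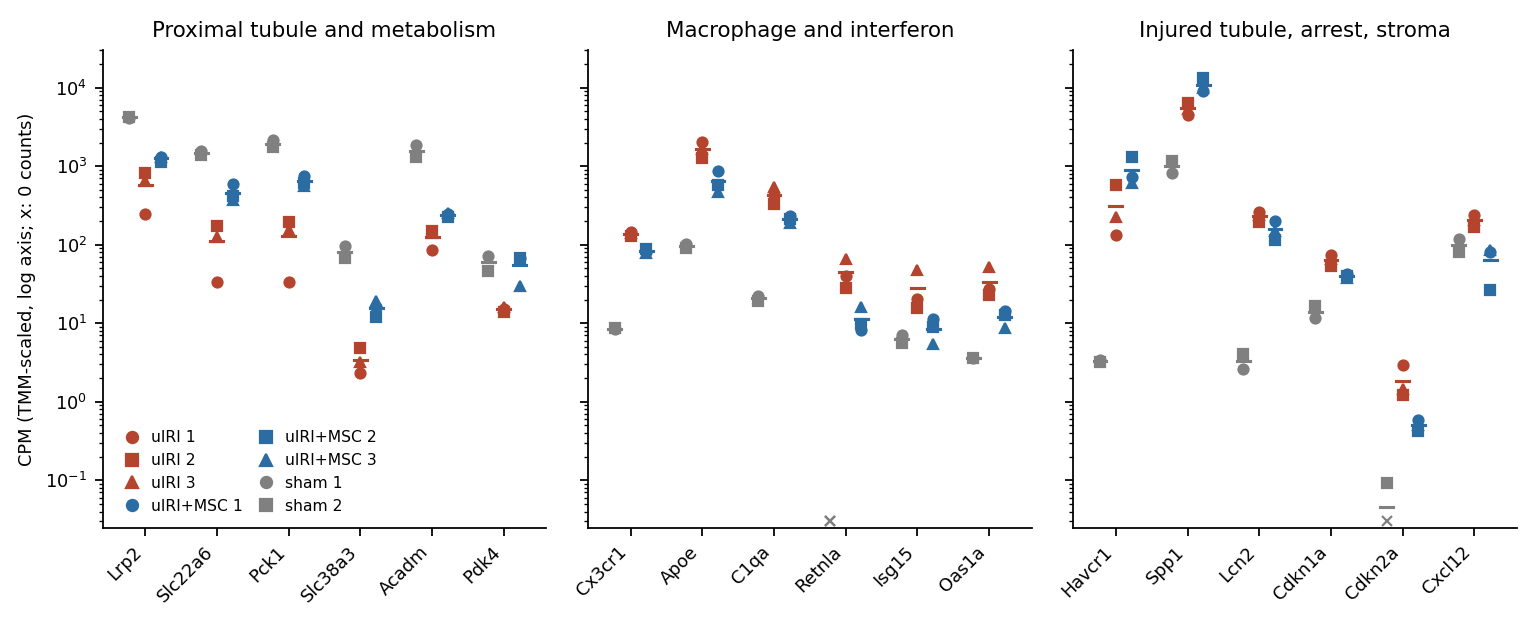
Points give the TMM-scaled CPM of 18 genes in each library on a log10 axis, horizontal bars the group means, and a cross marks 0 counts. The 3 uIRI+MSC libraries (blue) lie above the 3 uIRI libraries (red) in Lrp2, Slc22a6, Pck1, Slc38a3, Acadm, Pdk4, Havcr1 and Spp1, and below them in Cx3cr1, Apoe, C1qa, Retnla, Isg15, Oas1a, Cdkn1a, Cdkn2a and Cxcl12, while Lcn2 overlaps.

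Respiratory chain transcripts differed between the mitochondrial and the nuclear genome. The 13 proteins encoded by mitochondrial DNA had a median of 1.0, with 10 higher at an unadjusted p under 0.05 and 10 without overlap. The share of all counts from mitochondrial DNA was 3.49, 4.69 and 4.84% in uIRI and 6.07, 6.24 and 11.3% in uIRI+MSC, a mean of 7.87 ± 2.97% against 4.34 ± 0.74% (SD, n = 3 each; exact two-sided permutation test p = 0.1, the smallest that 3 against 3 allows). Sham stood at 14.2% in both libraries. mt-Cytb, of complex III, stood at 3091, 4514 and 4617 CPM in uIRI, 6541, 6597 and 11311 in uIRI+MSC and 24725 and 22599.6 in sham. The library uIRI+MSC 3 was well above the others there, and without it the list median was 0.65 with 4 of 13 higher. Nuclear genes of complex I had a median of 0.07 (5 of 36 higher), complex II 0.45 (3 of 4), complex III 0.07 (2 of 9), complex IV 0.06 (0 of 13) and complex V 0.13 (1 of 16), with none lower at an unadjusted p under 0.05. The 3 of complex II became 0 without uIRI 1, without uIRI+MSC 1, without uIRI+MSC 2 and with library size alone, and 1 without uIRI 3. With library size alone the medians of complexes I, III, IV and V turned to -0.07, -0.07, -0.08 and -0.02. Those of I, III and IV also turned without uIRI 1 (-0.08, -0.02 and -0.15) and without uIRI+MSC 1 (-0.13, -0.21 and -0.28).

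The nuclear subunits were low in uIRI+MSC 3 while the mitochondrial ones were high there. Over the 78 nuclear genes tested, the median relative to uIRI was 0.49, 0.16 and -0.45 in uIRI+MSC 1, 2 and 3. Without uIRI+MSC 3 the median of complex I was 0.30 with 11 higher, and those of III, IV and V were 0.39, 0.28 and 0.35. In this library short transcripts as a class were low. Among 325 genes with a gene model under 1000 bases and at least 5 CPM, the median deviation from the group mean was -0.41 in uIRI+MSC 3 and between -0.108 and 0.325 in the other 5. Of the nuclear respiratory genes, the 16 with models under 1000 bases had a median difference of 0.01 and the 62 longer ones 0.14. Cytosolic ribosomal protein genes, 6 with models under 1000 bases and 30 longer, had a median of -0.20, and of -0.01 without uIRI+MSC 3. In that library the 6 stood at a median of -0.92 relative to uIRI and the 30 at -0.63. Of the 36 tested, 1 was lower at an unadjusted p under 0.05, and 10 were without uIRI+MSC 1. The 62 longer respiratory genes stood at medians of -0.31, 0.2 and 0.11 in uIRI 1, 2 and 3 and 0.5, 0.25 and -0.36 in uIRI+MSC 1, 2 and 3, and 11 of them were higher at an unadjusted p under 0.05. Ndufs1, the largest subunit of complex I, stood at 77.6, 128 and 113 against 163, 167 and 167 CPM (0.64 ± 0.18, DESeq2 adjusted p = 0.027), and Uqcrc2, a core subunit of complex III, at 142, 208 and 190.1 against 274, 272 and 272 (0.60 ± 0.16). The ratio of mt-Atp6 to mt-Atp8 counts, 2 genes that overlap on the mitochondrial genome, was 2.94 in uIRI+MSC 3 and 0.372 to 0.698 in the other 5 libraries, so the difference of mt-Atp6 (2.71 ± 0.91) rests on that library and was 0.52 without it. The part of transcript length in the differences of single genes was not tested.

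**Figure D4:**
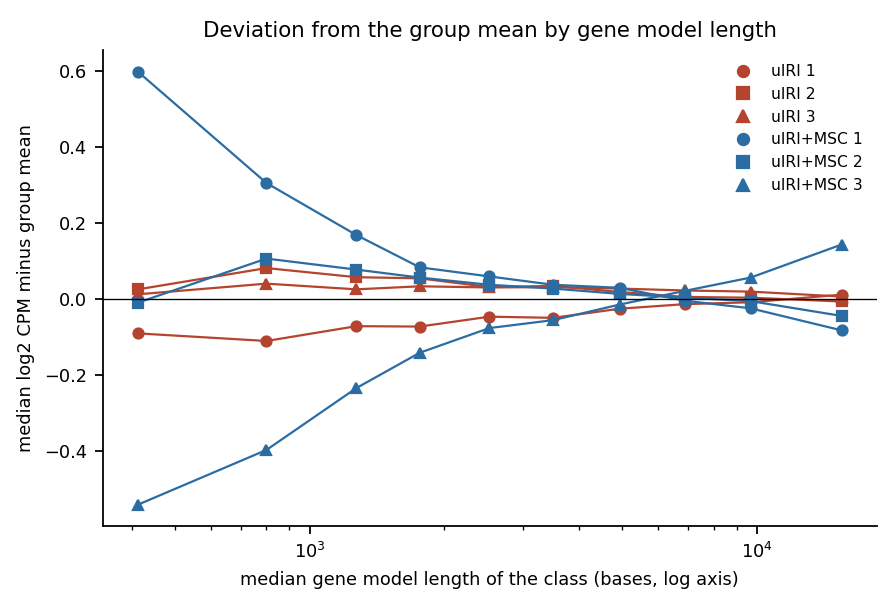
Lines join the medians of 10 classes of genes by gene model length (x axis, bases, log10), each the median of log2 CPM minus the mean of the gene's own group over genes of at least 5 CPM. In uIRI+MSC 3 the shortest class lies at -0.542 and the longest at 0.143, and in uIRI+MSC 1 they lie at 0.598 and -0.083.

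Among regulators of mitochondrial mass, 8 of 22 genes were higher and 0 lower at an unadjusted p under 0.05 (median 0.32). Ppargc1a, the coactivator PGC-1alpha, stood at 24.4, 38.3 and 43.1 CPM in uIRI against 45.9, 50.7 and 81.8 in uIRI+MSC, without overlap (0.75 ± 0.28, DESeq2 adjusted p = 0.101), and with sham at 99.4 and 140.0. Without uIRI+MSC 3 the difference was 0.47. Its partner receptor Esrrg differed by 0.92 ± 0.24, the mitophagy receptor gene Bnip3 by 0.70 ± 0.19 and the mitochondrial RNA polymerase gene Polrmt by 0.47 ± 0.13.

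Other nephron segments differed less and not in 1 direction. Their counts stand beside 11.3% of all genes higher and 9.34% lower at an unadjusted p under 0.05. The distal convoluted and connecting tubule list had 4 of 11 genes higher (median 0.62, and 0.14 without uIRI 1 or 0.38 without uIRI+MSC 2), beside 11.3% of all genes. Kl, which encodes the co-receptor Klotho for the phosphate hormone FGF23, stood at 71.7, 219.8 and 207 CPM in uIRI, 373, 362 and 462 in uIRI+MSC and 1327 and 1429 in sham (1.26 ± 0.37, DESeq2 adjusted p = 0.0126). The uIRI+MSC libraries were all above uIRI and well below sham. Slc12a3, the thiazide-sensitive cotransporter, differed by 0.76 ± 0.25 (0.50 without uIRI 1) and the calcium-binding protein gene Calb1 by 1.69 ± 0.53. The thin limb list had 0 of 8 genes higher or lower (median -0.42), and 4 lower with library size alone. Relative to uIRI its median stood at -0.03, 0.03 and 0.12 in uIRI and -0.42, -0.3 and -0.39 in uIRI+MSC. In 2 of its genes uIRI+MSC lay lower without overlap, beside 12.7% of all genes. In the thick ascending limb 2 of 12 genes were lower and 0 higher (median -0.32), with 5 lower without uIRI 1 and 7 without uIRI 1 and uIRI+MSC 3 (median -0.71). Without uIRI 3 the median was -0.05 and without uIRI+MSC 2 -0.18, and without uIRI 3 or uIRI+MSC 1 only 1 gene was lower. The tight junction genes Cldn16 (12.4, 12.3 and 19.1 CPM in uIRI, 8.46, 4.65 and 8.48 in uIRI+MSC, -1.01 ± 0.28) and Cldn19 (-0.90 ± 0.36, or -0.55 without uIRI+MSC 2), which carry magnesium and calcium reabsorption, were the 2, and in uIRI+MSC they also lay below sham (15.6 and 13.4 CPM for Cldn16). Umod, the most abundant protein of normal urine, overlapped between groups (1737, 2551 and 2479 against 1725, 700.3 and 2384 CPM, -0.49 ± 0.40, or -0.14 without uIRI+MSC 2 and -0.89 without uIRI+MSC 3), as did the growth factor gene Egf (-0.04 ± 0.46), which stood at 2302 and 2964 CPM in sham and between 34.0 and 105 in the 6 injured libraries. Of 11 principal cell genes 3 were higher (median 0.33), and 1 was without uIRI+MSC 2 (median 0.09), without uIRI+MSC 3 or with library size alone. Without uIRI 1 the median was 0.12, and without uIRI 3 0.56. The higher ones included the sodium channel subunit Scnn1b (0.73 ± 0.20), and the water channel Aqp2 stood at 3.91, 16 and 16.2 against 20.9, 27.4 and 25.6 CPM (1.04 ± 0.47, DESeq2 adjusted p = 0.147, and 0.61 without uIRI 1). No intercalated cell gene of 11 reached an unadjusted p under 0.05, and their median of -0.08 was 0.15 without uIRI 3, 0.04 without uIRI+MSC 1 and 0.01 without uIRI+MSC 3. Podocyte genes had 3 of 12 lower (median -0.29), among them Tcf21, which also marks stroma, and Cdkn1c, while the slit diaphragm gene Nphs1 differed by -0.04 ± 0.14. Endothelial genes had a median of -0.17 with 2 of 15 lower, near the 9.34% of all genes, and 0 lower without uIRI 1, without uIRI 3 or without uIRI+MSC 2. Pecam1 differed by -0.02 ± 0.13.

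Markers of injured tubule differed in both directions. The log2 difference was positive in 13 genes of the list and negative in 15. In 6 genes uIRI+MSC lay higher without overlap and in 6 lower, beside 14.1% and 12.7% of all genes. Of 28 genes 7 were higher and 3 lower in uIRI+MSC at an unadjusted p under 0.05 (median -0.09), beside 11.3% and 9.34% of all genes. The 7 higher became 4 without uIRI 1, 3 without uIRI 3, and 4 without uIRI+MSC 2 or 3, with medians of -0.28 to 0.03. The 3 lower became 1 without uIRI 1 or uIRI 3, and 9 with library size alone. Havcr1 (ENSMUSG00000040405, chromosome 11, 46735080 to 46779578), which encodes the phagocytic injury marker KIM-1 of proximal tubule, stood at 135, 572 and 227 CPM in uIRI, 734, 1309 and 612 in uIRI+MSC and 3.4 and 3.22 in sham. It was higher in all 3 uIRI+MSC libraries, with a difference of 1.51 ± 0.50 (DESeq2 adjusted p = 0.0261), and the 2 groups nearly touched, at 572 and 612. Without uIRI 2 it was 2.29. Spp1, the secreted phosphoprotein osteopontin, stood at 4509, 6424 and 5335 against 9026, 13178 and 9837 CPM (0.98 ± 0.27, DESeq2 adjusted p = 0.00227), and Vcam1, an adhesion molecule of failed-repair tubule, at 366, 505 and 441 against 677, 1048 and 633 (0.84 ± 0.22, DESeq2 adjusted p = 0.012). The transcription factor gene Sox9 of regenerating tubule (0.72 ± 0.24), the keratin gene Krt20 (0.95 ± 0.38, or 0.63 without uIRI 1) and the integrin gene Itgb8 (1.2 ± 0.24) were also higher, the last also abundant in sham (284 and 291 CPM). Lcn2, the iron-scavenging protein NGAL, went the other way and overlapped, at 261, 194 and 238 against 201, 116 and 151 CPM (-0.56 ± 0.22, DESeq2 adjusted p = 0.115). Anxa1, an anti-inflammatory annexin, was lower at 234, 107 and 144 against 75.9, 62.6 and 88.3 (-1.1 ± 0.28, or -0.73 without uIRI 1). The hyaluronan receptor gene Cd44 overlapped (0.42 ± 0.19, or 0.26 without uIRI+MSC 2).

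Macrophage transcripts were lower in uIRI+MSC. Of 30 tested genes 20 were lower and 0 higher at an unadjusted p under 0.05, 19 had no overlap, and DESeq2 called 18 lower. The median was -0.77, and -0.83 with 22 lower without uIRI 1 and uIRI+MSC 3. Against sham the list stood at 4.06 in uIRI and 3.25 in uIRI+MSC. Over the list the summed level was 8540, 5450 and 7280 CPM in uIRI, 3960, 3280 and 3800 in uIRI+MSC and 611 and 571 in sham.

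Identity genes of tissue macrophages shared in this. Adgre1, which encodes F4/80, stood at 176, 150.2 and 193 CPM in uIRI, 103, 82.7 and 119 in uIRI+MSC and 10.3 and 11.4 in sham (-0.77 ± 0.16, DESeq2 adjusted p = 0.00141). The 3 chains of complement C1q, made by macrophages, lay lower together, with C1qa at 427, 326 and 544 CPM in uIRI against 229.6, 213 and 189 in uIRI+MSC (-1.04 ± 0.19), C1qb at -0.94 ± 0.20 and C1qc at -0.89 ± 0.18. Csf1r, the receptor for their growth factor, differed by -0.60 ± 0.19 and Ccr2, which draws monocytes from blood, by -0.63 ± 0.14. Genes known from lipid-laden macrophages were lower too: Apoe stood at 2039, 1259 and 1676 against 878, 583 and 465 CPM (-1.37 ± 0.27, DESeq2 adjusted p = 0.000139), and Trem2, the lipid receptor gene, at 50.7, 27.4 and 37.9 against 19.1, 9.65 and 14.9 (-1.4 ± 0.30). Gpnmb, a lysosomal glycoprotein of such cells, varied widely within both groups, at 379, 38.6 and 217 CPM in uIRI against 21.4, 4.65 and 42 in uIRI+MSC, and these overlapped. Retnla, a marker of alternative activation induced by interleukin-4, stood at 39.6, 28 and 66.1 CPM in uIRI against 8.25, 9.86 and 16 in uIRI+MSC (-1.98 ± 0.37, DESeq2 adjusted p = 5.03e-05) and had 0 counts in sham. The mannose receptor gene Mrc1 overlapped (-0.33 ± 0.23). Ear2, a ribonuclease of eosinophils and some monocytes, differed by -0.88 ± 0.24.

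Some chemokine and complement genes were lower. Of 32 chemokine and receptor genes 8 were lower and 1 higher at an unadjusted p under 0.05 (median -0.58, DESeq2 7 lower). The monocyte attractant genes Ccl12 (9.39, 11 and 13.9 CPM in uIRI, 5.02, 3.22 and 3.36 in uIRI+MSC, -1.55 ± 0.25) and Ccl8 (30.8, 19 and 69.8 against 11.4, 10.8 and 10.1, -1.89 ± 0.48, or -1.21 without uIRI 3) were lower, and so was Cxcl12, a stromal attractant for lymphocytes and progenitors (236, 170.4 and 209 against 80.3, 26.4 and 85.5, -1.68 ± 0.39), which in uIRI+MSC 2 lay below both sham libraries (117 and 80). Ccl2, the main monocyte attractant of injured tubule, overlapped at 25.4, 62 and 36.7 against 36.8, 54.3 and 30.4 CPM (-0.03 ± 0.32). The 1 higher was the neutrophil attractant gene Cxcl2 (1.0 ± 0.43), and it overlapped. In the complement list 10 of 22 were lower and 3 higher (median -0.48). Beside the C1q chains, the anaphylatoxin receptor gene C3ar1 was lower (-1.06 ± 0.21, DESeq2 adjusted p = 0.000721). C3 itself, made by injured tubule among other sources, was higher at 573, 1318 and 1088 against 2073, 3302 and 1838 CPM (1.28 ± 0.37, DESeq2 adjusted p = 0.012). The alternative pathway gene Cfb (1.12 ± 0.40) and the terminal component gene C8a (1.99 ± 0.61) were the other 2 higher. C8a was at 1.25 without uIRI 1 and uIRI+MSC 3. With only the 6 compared libraries in the fit, it did not pass the filter on low counts. Of the cytokine and NF-kB list 3 of 27 were higher and 6 lower (median -0.06), beside 11.3% and 9.34% of all genes. Without uIRI 1 there were 3 lower (median 0.02), and 5 were higher without uIRI+MSC 1 and 8 without uIRI+MSC 3. Il1b stood at 33.7, 27.3 and 29.5 against 10.1, 17.1 and 18.2 CPM (-1.0 ± 0.24), and Osm, an interleukin-6 family cytokine gene, at 3.54, 2.16 and 2.92 against 0.963, 1.0 and 0.84 (-1.61 ± 0.43).

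Interferon-stimulated genes were lower as well. Interferons act through receptors whose signal leads transcription factors to a short element in the promoters of antiviral genes. Of 32 tested genes 17 were lower and 0 higher at an unadjusted p under 0.05, 16 had no overlap, DESeq2 called 13 lower, and the median was -0.95. The element, TTTC followed by 2 bases of any kind and TTTC, was searched on both strands in RefSeq promoters of GRCm38.p6 (250 bases before to 50 after the start). It occurred in 16 of the 23 promoters found for the list (69.6%) and in 952 of 27025 promoters of all genes (3.52%). The list was made of genes known to respond to interferon, so this share describes the list and not these kidneys. Among the largest differences the element occurred in 0 of 9 promoters of higher genes and 1 of 9 of lower genes. Motifs of other transcription factors were searched too. In the same 23 promoters the AP-1 motif occurred in 6 (26.1%), beside 7.91% of all promoters. The 3 promoters printed here run 5′ to 3′ over the 250 bases before the start, with the element in capitals. It lies on the printed strand in Ifit3b and on the opposite one in Isg15 and Oas1a. They are shown because the copies of the element can be read beside genes with the clearest differences of the list. Isg15 spans chr4:156200819-156201068 on the minus strand with 3 overlapping copies. Oas1a spans chr5:120907526-120907775 on the minus strand with 2 overlapping copies, and Ifit3b chr19:34607707-34607956 on the plus strand with 2.
Isg15: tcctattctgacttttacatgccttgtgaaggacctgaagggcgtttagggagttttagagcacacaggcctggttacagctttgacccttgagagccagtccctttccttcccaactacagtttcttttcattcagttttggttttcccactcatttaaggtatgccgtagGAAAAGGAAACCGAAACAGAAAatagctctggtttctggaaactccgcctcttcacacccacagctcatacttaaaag
Oas1a: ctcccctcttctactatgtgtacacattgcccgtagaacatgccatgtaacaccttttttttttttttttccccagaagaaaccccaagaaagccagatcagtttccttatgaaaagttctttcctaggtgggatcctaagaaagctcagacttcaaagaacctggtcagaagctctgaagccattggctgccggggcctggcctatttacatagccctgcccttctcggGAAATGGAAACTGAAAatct
Ifit3b: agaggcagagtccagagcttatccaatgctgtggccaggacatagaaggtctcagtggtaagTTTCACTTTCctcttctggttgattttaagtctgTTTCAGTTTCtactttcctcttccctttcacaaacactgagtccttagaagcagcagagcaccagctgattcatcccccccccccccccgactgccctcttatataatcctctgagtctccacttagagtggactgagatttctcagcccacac
A match is a description of the sequence and shows no binding in these kidneys.

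Isg15, a ubiquitin-like protein attached to other proteins in infection, stood at 20.4, 15.5 and 47.8 CPM in uIRI, 11.2, 8.93 and 5.37 in uIRI+MSC and 7.0 and 5.52 in sham (-1.7 ± 0.43, DESeq2 adjusted p = 0.00378). Oas1a, which makes the activator of RNase L, had CPM of 27.2, 22.8 and 51.4 in uIRI, of 14.3, 12.7 and 8.65 in uIRI+MSC, and of 3.59 and 3.59 in sham (-1.5 ± 0.32). Ifit3b, which binds viral RNA, had CPM of 17.6, 18.2 and 47 in uIRI, of 10.9, 8.65 and 8.06 in uIRI+MSC, and of 5.73 and 12.2 in sham (-1.58 ± 0.43). In all 3 genes uIRI 3 was the highest library by far, and every uIRI+MSC library lay below every uIRI library. The list median relative to uIRI was -0.25, -0.54 and 0.76 in uIRI 1, 2 and 3 and -0.88, -0.66 and -0.86 in uIRI+MSC. Without uIRI 3 the median difference became -0.26 with 13 lower at an unadjusted p under 0.05, and without uIRI 1 and uIRI+MSC 3 it was -1.03 with 16 lower. The regulator Irf7 (-1.47 ± 0.50) and the antiviral genes Mx1 (-1.19 ± 0.34), Ifit1 (-1.36 ± 0.37) and Rtp4 (-1.16 ± 0.29) were lower too. Without uIRI 3 these 4 stood at -0.57, -0.71, -0.73 and -0.75, Isg15 at -1.07 and Ifit3b at -0.96.

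Lymphoid, dendritic cell and neutrophil genes had medians below 0. In 5 of 28 T and NK cell genes and 6 of 19 dendritic cell and antigen presentation genes uIRI+MSC lay lower without overlap. The same held for 4 of 9 neutrophil and 3 of 19 B and plasma cell genes, beside 12.7% of all genes. Another 2 B and plasma cell genes lay higher without overlap, beside 14.1% of all genes. Of 28 T and NK cell genes 5 were lower and 0 higher at an unadjusted p under 0.05 (median -0.53). The count was 2 without uIRI 1 and 9 without uIRI+MSC 2. In level, Cd3e, part of the T cell receptor complex, stood at 10.4, 8.51 and 9.75 against 7.45, 8.58 and 6.89 CPM and overlapped (-0.32 ± 0.22). Eomes, a transcription factor of NK and memory T cells, differed by -1.57 ± 0.39 at levels under 3 CPM. Of 19 dendritic cell and antigen presentation genes 7 were lower and 0 higher (median -0.39), and 4 were lower without uIRI 3 and 2 without uIRI+MSC 1 or 3. Itgax, which encodes CD11c, stood at 159, 94.8 and 106 against 72.2, 80.6 and 75.7 CPM (-0.66 ± 0.19, DESeq2 adjusted p = 0.0318, or -0.41 without uIRI 1), and the chemokine receptor gene Xcr1 of cross-presenting dendritic cells differed by -0.96 ± 0.26. The class II gene H2-Aa was lower without overlap (-0.52 ± 0.21), and its abundant chaperone Cd74 overlapped at 2795, 2567 and 3158 against 2336, 2646 and 2278 CPM (-0.23 ± 0.18). Neutrophil genes were lower in 2 of 9 (median -0.59), and B and plasma cell genes lower in 2 and higher in 1 of 19 (median -0.21). Over all genes 9.34% were lower and 11.3% higher at an unadjusted p under 0.05.

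Fibroblast and matrix transcripts were lower in uIRI+MSC in counts that depended on single libraries. Of 30 genes 14 were lower and 1 higher at an unadjusted p under 0.05, only 4 of them lower without overlap, and DESeq2 called 2 lower. The median was -0.70, and without uIRI 1 it was -0.40 with 1 lower. Without uIRI+MSC 2 it was -0.55 with 2 lower, and without uIRI 3 it was -0.93 with 22 lower. Without uIRI+MSC 3 there were 8 lower. Col1a1, the main fibrillar collagen chain, stood at 1802, 911 and 770.2 CPM in uIRI, 792, 417 and 590.1 in uIRI+MSC and 36.9 and 64.8 in sham. The highest uIRI+MSC library overlapped the lowest uIRI library, and the difference was -0.95 ± 0.38 (DESeq2 adjusted p = 0.0761) or -0.49 without uIRI 1. Col3a1 differed by -0.99 ± 0.36, the myofibroblast actin gene Acta2 by -0.86 ± 0.38 and fibronectin (Fn1) by -0.63 ± 0.32, each with overlap. Without uIRI 1 these were -0.59, -0.46 and -0.36, and without uIRI+MSC 2 Fn1 was at -0.39. Ctgf, a matrix protein induced by TGF-beta and YAP, was apart at 207, 193 and 185 against 123, 60.9 and 129 CPM (-0.90 ± 0.26). Timp3, a metalloproteinase inhibitor abundant in sham tubule, was the gene of the list that was higher (739, 1117 and 923 against 1386, 1567 and 1647, 0.73 ± 0.20).

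Of 28 genes of TGF-beta, WNT, Notch and hypoxia signalling 11 were lower and 1 higher at an unadjusted p under 0.05 (median -0.29). There were 5 lower without uIRI 1, 6 without uIRI+MSC 1 and 4 without uIRI+MSC 2. Axin2, a feedback target of WNT signalling, stood at 40.1, 19.8 and 21.5 against 11.3, 8.43 and 13.9 CPM and 2.14 and 2.58 in sham (-1.28 ± 0.30, DESeq2 adjusted p = 0.00412). Inhba, which encodes the activin A chain, stood at 7.0, 6.49 and 2.78 against 1.42, 0.572 and 2.77 (-1.8 ± 0.57), a separation of 0.01 CPM, and had 0 counts in sham. Notch1 differed by -0.47 ± 0.15, and Tgfb1 overlapped (118, 128 and 106 against 99, 99.9 and 111 CPM, -0.18 ± 0.15). The flow-induced endothelial factor gene Klf2 overlapped too (-0.38 ± 0.15). Of 16 markers used for mesenchymal stromal cells themselves, 2 were higher and 4 lower (median -0.43), beside 11.3% and 9.34% of all genes. The 4 became 2 without uIRI+MSC 2 (median -0.30), 6 without uIRI 3 or uIRI+MSC 3 and 8 with library size alone. The 2 became 1 without uIRI 1 (median -0.28), without uIRI 3, without uIRI+MSC 2, without uIRI+MSC 3 or with library size alone. The 2 higher were Vcam1 and the ecto-nucleotidase gene Nt5e, both also made by kidney cells, and the nestin gene Nes was lower at 195, 208 and 176 against 125, 128 and 95.8 CPM (-0.73 ± 0.16). These markers do not tell donor from host cells.

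Senescence, named in the title of the series, was followed through arrest genes and secreted factors. Of 23 arrest and lysosomal genes 8 were lower and 2 higher at an unadjusted p under 0.05 (median -0.13, DESeq2 6 lower). Without uIRI 1 and uIRI+MSC 3 there were 7 lower and 2 higher. The genes of 3 cyclin-dependent kinase inhibitors were lower without overlap. Cdkn1a (ENSMUSG00000023067, chromosome 17, 29090979 to 29100722), which encodes p21, stood at 73.8, 53.7 and 64.8 CPM in uIRI, 42.1, 39.6 and 38.1 in uIRI+MSC and 11.6 and 16.6 in sham (-0.68 ± 0.17, DESeq2 adjusted p = 0.00825). Cdkn2a, which encodes p16 and ARF, was scarce, at 2.9, 1.21 and 1.46 against 0.586, 0.429 and 0.504 CPM and 1 count in sham (-1.85 ± 0.48, DESeq2 adjusted p = 0.0295). Its neighbour Cdkn2b, which encodes p15, stood at 13.9, 8.65 and 8.57 against 5.78, 3.72 and 3.61 (-1.23 ± 0.30, DESeq2 adjusted p = 0.00609). In the 3 inhibitors the uIRI+MSC libraries lay between uIRI and sham. Glb1, the lysosomal enzyme behind the beta-galactosidase stain, was higher at 75.1, 106 and 92.6 against 162, 125 and 129 CPM, with sham higher still at 313 and 239 (0.60 ± 0.18). Lmnb1, a nuclear lamina gene that is lost in senescent cells, overlapped (40.7, 36 and 26.9 against 28.2, 31.4 and 27.5, -0.25 ± 0.16).

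The secretory list of 45 genes had 14 lower and 4 higher (median -0.34), and the 14 became 3 without uIRI 1, 6 without uIRI+MSC 1 and 5 without uIRI+MSC 2. Il1b and Ccl8, given above, were its members with the smallest p, and Il6 stood at 0.741, 1.36 and 0.895 against 0.628, 0.715 and 0.588 CPM (-0.63 ± 0.39, or -0.34 without uIRI 2). Igfbp3, a binding protein for insulin-like growth factors, was higher (103, 87.8 and 71.6 against 138, 126 and 132, 0.59 ± 0.16) where Igfbp2 was lower. Areg, an epidermal growth factor receptor ligand, was higher at low levels (0.909, 0.807 and 0.33 against 1.72, 1.36 and 2.6, 1.43 ± 0.46). Cell cycle genes stayed near 0, with 1 of 32 lower and 0 higher and a median of -0.06 (0.02 without uIRI 1). With library size alone 6 were lower. The 1 was Ccnd1, cyclin D1 (-0.34 ± 0.15), and the proliferation marker Mki67 stood at 49.8, 41.8 and 38.1 against 40.8, 40.2 and 64.9 CPM (0.17 ± 0.20).

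Copper enters cells through the transporter CTR1 and leaves through the pumps ATP7A and ATP7B, while metallothioneins bind what is in excess. Of 39 genes of copper handling 8 were higher and 6 lower at an unadjusted p under 0.05, beside 11.3 and 9.34% of all genes, with a median of 0.11 that was -0.04 with library size alone. The 6 lower became 3 without uIRI 1 or 2 and 1 without uIRI+MSC 2. Slc31a1, which encodes CTR1, stood at 81.8, 117 and 103 CPM in uIRI, 150.0, 147 and 147 in uIRI+MSC and 317 and 268 in sham (0.56 ± 0.15, DESeq2 adjusted p = 0.0265). Its uIRI+MSC libraries agreed within 3 CPM and lay above every uIRI library. Atp7b was higher at low levels, 1.31, 2.49 and 1.74 against 3.94, 3.36 and 3.86 CPM (1.01 ± 0.33, DESeq2 adjusted p = 0.0737), and Atp7a overlapped at 27.1, 32.1 and 32.3 against 27.3, 32 and 37 (0.07 ± 0.18). Both metallothionein genes were lower: Mt1 at 55.4, 59.5 and 64.1 against 53.1, 32.2 and 38 (-0.53 ± 0.19) and Mt2 at 47.9, 63.5 and 56.5 against 47.4, 37 and 28.9 CPM (-0.56 ± 0.21). Their gene models are 540 and 556 bases long, and the groups nearly touched. The metalloreductase gene Steap2, which reduces copper and iron, differed by 0.64 ± 0.16. The lipid transfer protein gene Mttp (0.87 ± 0.18) and clotting factor gene F5 (1.61 ± 0.34) had the smallest p of the list. They do not transport copper, and both count among the 8 higher.

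Lipoylated enzymes of mitochondria are the targets of copper in cuproptosis. Of 18 genes 10 were higher and 0 lower at an unadjusted p under 0.05 (median 0.43, and 8 with 0.31 without uIRI 1 and uIRI+MSC 3). Without uIRI+MSC 1 the count was 6, and with library size alone 5. The pyruvate dehydrogenase subunit genes Pdha1 (195, 247 and 233 against 328, 336 and 367 CPM, 0.61 ± 0.14) and Dlat (0.45 ± 0.13) were higher, as were Dld, the shared lipoamide dehydrogenase (0.55 ± 0.15), and Dbt (0.68 ± 0.19). Lias, which makes the lipoyl group, stood at 21.8, 26 and 24.9 against 29.1, 29.6 and 29.4 CPM (0.28 ± 0.11, DESeq2 adjusted p = 0.248). Fdx1, the ferredoxin that reduces copper in this pathway, overlapped (15.1, 25.1 and 22.5 against 35.3, 31.2 and 18.7, 0.45 ± 0.26, or 0.26 without uIRI 1 and 0.68 without uIRI+MSC 3). Both lay below sham in all 6 injured libraries.

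Antioxidant and NRF2 target genes were higher in 14 of 27 and lower in 1 (median 0.48), with 8 higher without uIRI 3 or without uIRI+MSC 2. Gclc and Gclm, the 2 subunits of the enzyme that starts glutathione synthesis, both lay higher without overlap. Gclc stood at 78.5, 107 and 114 against 205, 191 and 299 CPM (1.21 ± 0.21, DESeq2 adjusted p = 6.12e-05), and Gclm at 58.6, 79.7 and 98.3 against 174, 133 and 261 (1.26 ± 0.29, DESeq2 adjusted p = 0.00196). Both were highest in uIRI+MSC 3. Nqo1, a quinone reductase, differed by 1.06 ± 0.22 and catalase (Cat) by 1.08 ± 0.25, while the 1 lower gene was the cystine transporter Slc7a11 (-1.23 ± 0.53, or -0.51 without uIRI 1), which overlapped. Of 24 ferroptosis and pyroptosis genes 2 were higher and 6 lower (median -0.29), or 2 lower without uIRI 1 and 1 without uIRI 3 or uIRI+MSC 1. Among them were the lipid remodelling gene Lpcat3 at 0.47 ± 0.12 and the inflammasome adaptor gene Pycard at -0.49 ± 0.18. Of the glycolysis genes 4 were higher and 4 lower of 24 (median 0.07, and -0.08 with library size alone), and the higher count depended on single libraries. It was 0 without uIRI 1, without uIRI 3, without uIRI+MSC 1, without uIRI+MSC 2 or with library size alone, 6 without uIRI 2 and 10 without uIRI+MSC 3. The 4 lower were the hexokinase genes Hk2 (36.9, 30.9 and 26.9 against 15.3, 13.9 and 15.1 CPM, -1.1 ± 0.20) and Hk3 (-1.19 ± 0.29), the pyruvate kinase gene Pkm (-0.46 ± 0.14) and the lactate exporter gene Slc16a3 (-0.80 ± 0.28). Immediate early genes were lower in 5 of 20 (median -0.18). This became 3 without uIRI 2, 3 without uIRI+MSC 1 (median 0.06), 2 without uIRI+MSC 2 and 10 without uIRI+MSC 3. The list held Egr3 at -1.17 ± 0.30 and Fos at 44.2, 45 and 50.6 against 11.3, 22.2 and 39.6 CPM (-0.95 ± 0.37, or -0.60 without uIRI+MSC 1 and -1.48 without uIRI+MSC 3). Genes of protein folding stress stayed near 0 (median 0.02, and -0.13 with library size alone, 1 higher and 1 lower of 22).

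**Figure D5:**
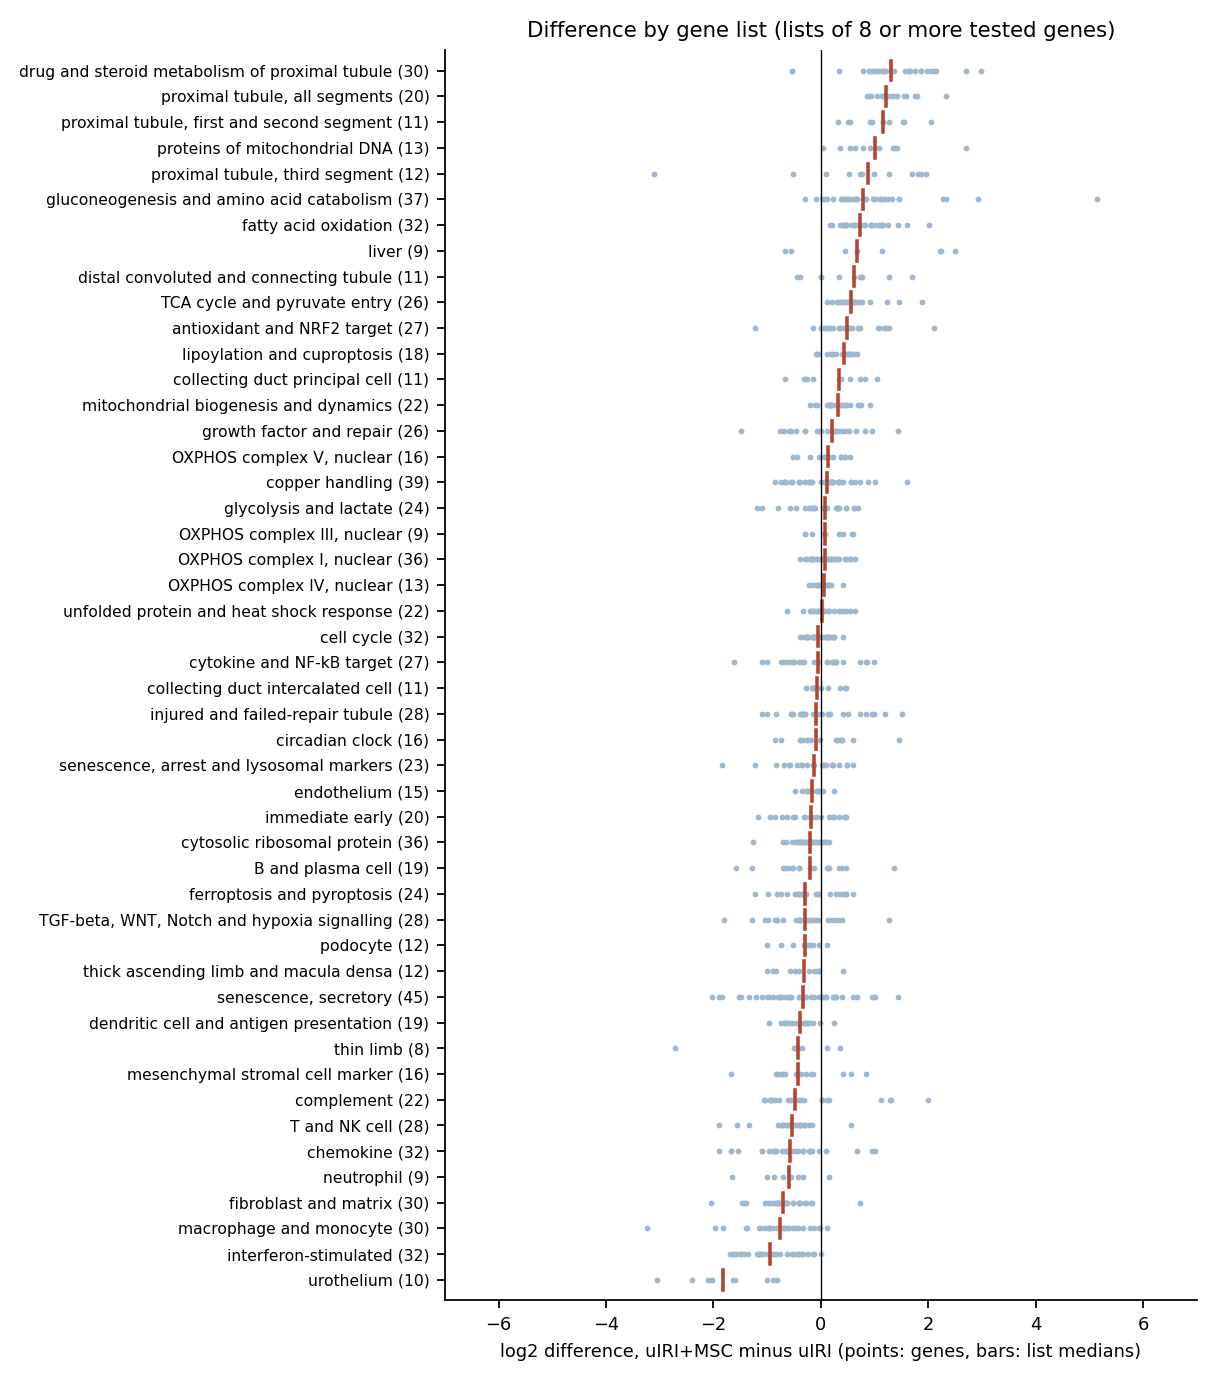
Points are the genes of each list of at least 8 tested genes, placed by their log2 difference between uIRI+MSC and uIRI, and red bars are list medians. The medians run from -1.83 in the urothelium list to 1.31 in drug and steroid metabolism, with the cell cycle, copper and respiratory complex lists near 0.

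Markers of neighbouring tissue were looked at because a kidney sample can carry pelvis, fat or adrenal gland. Urothelial genes had a median difference of -1.83, with 0 of 10 lower at an unadjusted p under 0.05. Their sums were low in uIRI+MSC 1 and 2 against every uIRI library, while uIRI+MSC 3 lay within the uIRI range. Their summed level over 10 tested genes was 164, 41.1 and 91.8 CPM in uIRI, 4.31, 3.36 and 77.9 in uIRI+MSC and 4.37 and 104 in sham, and the keratin gene Krt5 stood at 32.6, 8.73 and 17.9 and 0.0837, 0.143 and 14.3 CPM. The least was in uIRI+MSC 1 and 2 and sham 1, and without uIRI+MSC 3 the list median was -6.4 with 8 lower at an unadjusted p under 0.05. The urea transporter gene Slc14a2, of the inner medulla, followed a similar order, at 22.6, 26.5 and 28.6 CPM in uIRI, 3.1, 0.0715 and 9.07 in uIRI+MSC and 3.4 and 151 in sham. The libraries thus differed in transcripts of inner medulla and pelvis. Their part in the list results above, those of proximal tubule, metabolism, collecting duct and stroma included, was not tested. Of 11 adipose tissue genes 5 were tested, and they summed to 71.4, 241 and 208 CPM in uIRI, 811, 675 and 595 in uIRI+MSC and 2210 and 1820 in sham. This sum includes Pck1, given above with gluconeogenesis. The fat cell genes Adipoq and Plin1 were too scarce to be tested, with 11 and 9 counts over uIRI and 10 and 11 over uIRI+MSC. Adrenal genes summed to between 2.29 and 4.31 CPM and skeletal muscle genes to between 1.93 and 5.17 in the 6 libraries. The genes of liver-made plasma proteins Fga, Fgb and Fgg, which injured tubule can also express, were higher in uIRI+MSC, with Fgg at 2.12, 33.8 and 11.5 CPM in uIRI, 81.6, 132 and 54.4 in uIRI+MSC and 9.13 and 11 in sham (2.49 ± 0.78, DESeq2 adjusted p = 0.0697). Fgb stood at 1.08, 6.56 and 2.5 against 12, 24.8 and 10.8 CPM (2.23 ± 0.60, DESeq2 adjusted p = 0.00519). Albumin (Alb), the defining liver gene, stayed at or under 1.36 CPM in all 6.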

How the data were processed

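Messenger RNA of mouse kidney was sequenced in 8 libraries. Per the file headers, the deposited table holds raw read counts per gene and FPKM (counts scaled by gene length and depth) made by the authors. Per the submitters' processing notes, the build was GRCm38 and the tools included HISAT2 2.0.4, StringTie 1.3.3b and edgeR 3.2.0, with no step named for each. The sources used here do not say which tool counted reads or how strand and shared reads were treated.

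Counts were tested with edgeR 4.0.16 in R 4.3.3 (filterByExpr with a minimum count of 10, TMM, glmQLFit with legacy=TRUE, glmQLFTest; 5 residual degrees of freedom) on all 8 libraries, contrast uIRI+MSC minus uIRI, with Benjamini-Hochberg adjustment at 0.05 over 16576 genes. The SE is the log2 difference over the square root of F. Other tools were limma-voom from limma 3.58.1 and DESeq2 1.42.0. The fit was tested on simulated data. FPKM served only to choose names. Depth was 11592986 to 24300112 counts, and 126 symbols shared by several identifiers were kept apart by identifier.

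The 56 lists (1148 entries, 999 distinct genes tested) and the fixed genes were chosen with earlier results of these data known. Numbers of list genes are those tested. The rule named the 12 largest differences each way past the threshold (mean FPKM at least 5, no overlap, leaving out predicted genes, immune receptor segments and haemoglobins), 28 fixed genes and up to 4 genes per list with the smallest p. Since 0 genes passed, the largest differences were taken at an unadjusted p under 0.05 (1787 genes qualified), a change made after the results were seen. Other list genes named, among them Hnf4a, Ppara, Cyp27b1, C3, Trem2, Col3a1 and Il6 and the genes with the smallest p of all, were also chosen after their values were seen.

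Same-numbered replicates did not deviate together (r = -0.09, 0.05 and -0.09), so the numbers were not taken as pairs. Leaving out 1 sham library leaves a single one, whose spread is then taken from the remaining groups. Alternatives covered the tool, the scaling, the filter on low counts, the dispersion, the libraries in the fit, the replicate block and each library left out in turn. Results for a few genes are not reported here.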

Additional observations from a re-analysis of the deposited data

How the results depend on the processing

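Under edgeR's quasi-likelihood test the count of genes past the adjusted threshold was 0 with TMM, with median-of-ratios factors, with library size alone, without a filter on low counts, with at least 50 counts in 2 libraries, with only the 6 libraries compared, with robust dispersions and with legacy=FALSE, at smallest adjusted p-values of 0.0856 to 0.154. DESeq2 called 1364 genes, 216 of them in the lists. With the replicate block the count was 0 (smallest adjusted p 0.184, with 2878 genes at an unadjusted p under 0.05). No uIRI+MSC library correlated best with the uIRI library of its own number. Leaving out 1 library gave 0 to 8 calls, and 0 to 1 among list genes: 8 without uIRI 1, 3 without uIRI 3, 2 each without uIRI+MSC 1 and without uIRI+MSC 3, and 0 without any other. Without uIRI 1 and uIRI+MSC 3, a setting chosen after seeing the data, there were 16 calls (12 higher, 4 lower), 3 of them in the lists. The cause of these changes was not tested. With library size alone the median change of all genes against sham became 0.73 in uIRI and 0.55 in uIRI+MSC, in place of 0.06 and 0.03. The difference in the mitochondrial share ran from 1.81 to 4.43 percentage points when 1 library was left out. Among named genes only those with a difference near 0 changed sign. With limma-voom this gave Ccl2 0.03 and Egf 0.03. With library size alone this gave Atp7a -0.08. With replicate block this gave Ccl2 0.02 and Egf 0.05. Without uIRI 1 and uIRI+MSC 3 this gave Atp7a -0.12 and Nphs1 0.11. With only the 6 libraries compared, replicate block this gave Ccl2 0.02 and Egf 0.04. Leaving out 1 library, the log2 difference ran over Atp7a -0.03 to 0.17, Ccl2 -0.30 to 0.38, Egf -0.49 to 0.62, Mki67 -0.08 to 0.29, Nphs1 -0.14 to 0.07 and Pecam1 -0.13 to 0.06. Depth limits scarce genes such as Cdkn2a, which has 26 counts over the 3 uIRI+MSC libraries.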

Other observations

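Growth factor genes and clock genes were measured but belong to no comparison above. Of 26 growth factor and repair genes 5 were higher and 3 lower at an unadjusted p under 0.05 (median 0.21), with 3 higher without uIRI 1 or 3. Over all genes 11.3% were higher and 9.34% lower. Fgf1, a fibroblast growth factor made in the tubule, stood at 57.6, 86.5 and 68.9 CPM in uIRI against 124, 96.3 and 155 in uIRI+MSC (0.82 ± 0.23), and Lhx1, a transcription factor of the forming nephron, at 6.3, 12.2 and 9.75 against 16.8, 18.9 and 18.8 (0.95 ± 0.24). Hgf, a mitogen for tubule cells known to be secreted by MSCs, was higher in 2 of the uIRI libraries and overlapped, at 19.6, 19.2 and 10.3 against 11.5, 6.72 and 12.3 CPM and 2.43 and 1.38 in sham (-0.68 ± 0.33). Of 16 clock genes 1 was higher, the output factor gene Hlf at 4.92, 13.1 and 18 against 33.7, 32.8 and 31.9 CPM (1.46 ± 0.41), and 1 lower, the repressor gene Cry1 (-0.75 ± 0.23). The list median was -0.10, and without uIRI 3 it was 0.51 with 4 higher and 2 lower, while without uIRI+MSC 3 there were 3 lower. Haemoglobin and other red cell genes summed to 80.3, 62.3 and 50.1 CPM in uIRI and 47.1, 155 and 49.1 in uIRI+MSC, so that uIRI+MSC 2 held the most.

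Several genes that passed edgeR with 1 library left out had 2 distinct levels that did not follow the groups. Rab22a, a small GTPase of endosomes, stood at 22.4, 24.2 and 23 CPM in uIRI, at 16.5, 98.1 and 91 in uIRI+MSC and at 108 and 104 in sham, so that uIRI+MSC 1 had the uIRI level and the other two the sham level. Tmem168 had the same order, with CPM of 30.6, 30.4 and 27.2 (uIRI), 31.2, 74.8 and 75.7 (uIRI+MSC) and 71.1 and 75.5 (sham). In Phc3, a Polycomb subunit gene, uIRI 2 and 3 were high and uIRI 1 was not (18.6, 90.1 and 101, against 18.3, 20.4 and 23.5 in uIRI+MSC and 15.8 and 13.7 in sham). In Zfp422 the library uIRI 3 had the level of uIRI+MSC and sham and uIRI 1 and 2 were low (CPM of 6.3, 6.45 and 39 in uIRI, of 40, 39 and 54.7 in uIRI+MSC, and of 50.7 and 42.9 in sham). DESeq2 with all libraries also called Rab22a, Tmem168 and Phc3 (adjusted p = 0.0262, 0.021 and 0.00783). These 4 were picked after their values were seen.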
